A study of Chlamydomonas reinhardtii with 9 samples.

Results

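In wild-type Chlamydomonas reinhardtii, 45 of the 17737 loci in the count files already took many reads in unexposed cultures and rose by a similar factor at both doses of methylmercury. A locus was a member when its control mean was at least 20 CPM, when its mean at each dose was at least 2 times the control mean, and when the mean at 0.5 nM divided by that at 0.05 nM lay between 0.67 and 1.5. CPM, the usual depth-scaled read count, were computed with edgeR's TMM factors for library composition over all loci. These values chose the members, so every change against control and every difference between the doses is given here as a description and not as a test. All 45 members passed the filter on low counts.

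Chlamydomonas reinhardtii is a unicellular green alga with one large chloroplast. All groups were the wild-type strain CPCC11 in an artificial freshwater medium, and all were sampled after 2 h. The control cultures had no mercury compound added, and the others had methylmercury (MeHg) at 0.05 nM or at 0.5 nM, with 3 biological replicates per group. The libraries, made from messenger RNA, held 15138888 to 20433375 reads assigned to loci, and single members 240 to 30742 reads. The labels do not say how separately the replicates were grown, so p-values measure the spread between these samples. The 0.05 nM samples alone name a sequencer and word their source differently, so a separate submission and that dose cannot be told apart.

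Methylmercury is an organic form of mercury that algae take up from water and that binds strongly to the thiol groups of proteins and of glutathione. Single-celled algae carry it into food webs, since grazers feed on them. In any cell a limited number of transcripts takes up a large share of the RNA pool, so a doubling of a transcript that is already plentiful moves more RNA than the same doubling of a rare one. Neither the count files nor the RefSeq gene table used here (assembly version 5.5, which matched 11713 identifiers by locus tag) pairs these identifiers with gene names or products, so members are given by identifier, without a function. CPM are not divided by transcript length, so an order of members by CPM is an order of reads and not of transcript number.

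Membership was rare among loci with many control reads. Of 5783 loci with a control mean of at least 20 CPM, 55 doubled at 0.05 nM, 70 doubled at 0.5 nM and 48 doubled at both. The limit on the ratio of the doses removed 3 of those 48 and left the 45, or 0.778% of the 5783. The mirror image, a fall to at most 1/2 of control at both doses within the same ratio limit, was met by 721 of the 5783. Below 20 CPM, 1230 of 8995 tested loci, or 13.7%, doubled at both doses within the ratio limit. With library totals in place of TMM factors, a scaling that moved the median log2 change of all tested loci up by 0.26 at 0.05 nM and by 0.29 at 0.5 nM, 89 loci met the rule, 41 of them members, and 275 met its mirror image. On either scale fewer loci with many control reads doubled alike than fell by the same factor. The floor was set on control reads alone. It keeps loci that fell below it and leaves out loci that rose past it, so these counts are not an even comparison of rises and falls.

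**Figure D1:**
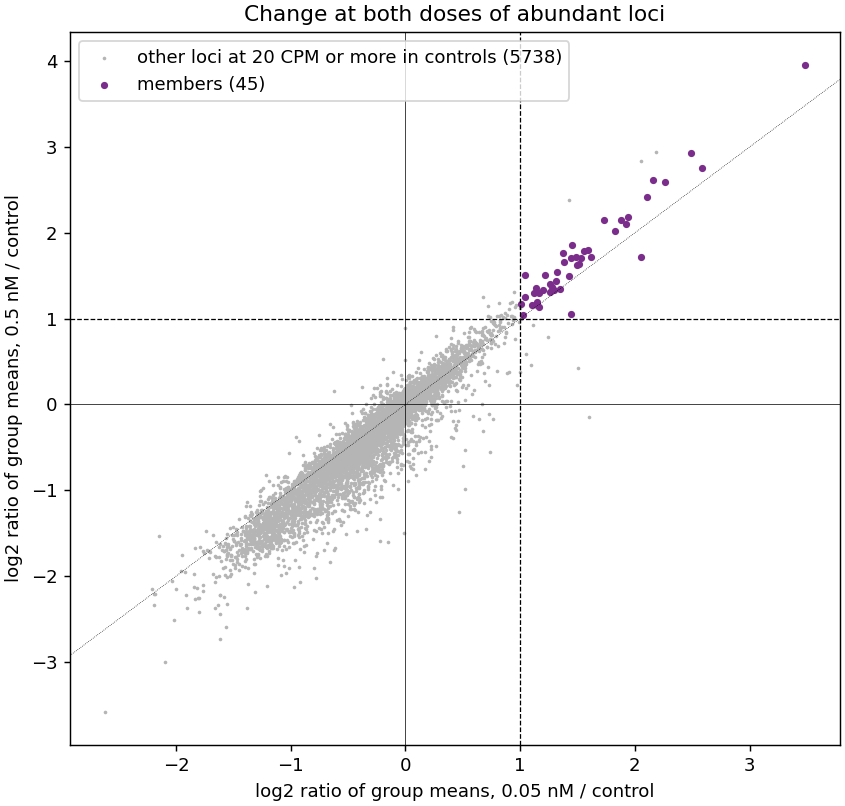
Log2 ratio of the group means at 0.5 nM over control (vertical axis) against that at 0.05 nM over control (horizontal axis) for the 5783 loci with at least 20 CPM in controls. The 45 members (purple) lie beyond the dashed lines at 1 on both axes, 42 of them above the dotted line of equal change, and both axes share the 3 control libraries.

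Together the members made up 0.220% ± 0.0275 (SD, n = 3) of the reads assigned in control libraries. At 0.05 nM they made up 0.832% ± 0.063 and at 0.5 nM 0.996% ± 0.0824 (SD, n = 3 in both). Their summed level was 2314, 2827 and 2334 CPM in control replicates 1 to 3, 7660, 7671 and 8382 CPM at 0.05 nM and 8481, 8460 and 10920 CPM at 0.5 nM. Every treated library thus stood above every control, and those at 0.5 nM stood above those at 0.05 nM, with the highest sum in 0.5 nM replicate 3. The median over the 45 members was 36.9 ± 3.75 CPM in the controls, 111.4 ± 5.01 CPM at 0.05 nM and 123.5 ± 10.3 CPM at 0.5 nM (SD of the library medians over 3 libraries). These are cultures of many cells, so a change in every cell and a larger change in some cells cannot be told apart. Nor can more cells that hold these transcripts be told from more of them per cell.

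In edgeR's quasi-likelihood fit of all 9 libraries, the members' log2 changes at 0.05 nM ran from 1.004 to 3.48 with a median of 1.42, and at 0.5 nM from 1.04 to 3.96 with a median of 1.62. Over all 14778 tested loci the medians were 0.05 and 0.07. With library totals the members' medians were 1.67 and 1.91. At 0.05 nM 44 members passed the adjusted threshold of 0.05 as higher, where 27.2% of all tested loci did, and at 0.5 nM 45 passed, where 31.6% did. As lower 0 members passed, where 25% of all tested loci did at 0.05 nM and 28.7% at 0.5 nM. For all 45 members the 3 treated libraries lay above the 3 controls at each dose, where 32.1% of tested loci at 0.05 nM and 33.5% at 0.5 nM did so. The rule chose the members on these contrasts, so nothing follows from those counts. The authors' deposited table gives all 45 as higher at both doses with an FDR-corrected p under 0.05, as it does 21.4% of its loci at 0.05 nM and 25.4% at 0.5 nM, and its folds for the members have medians of 2.67 and 3.08.

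**Figure D2:**
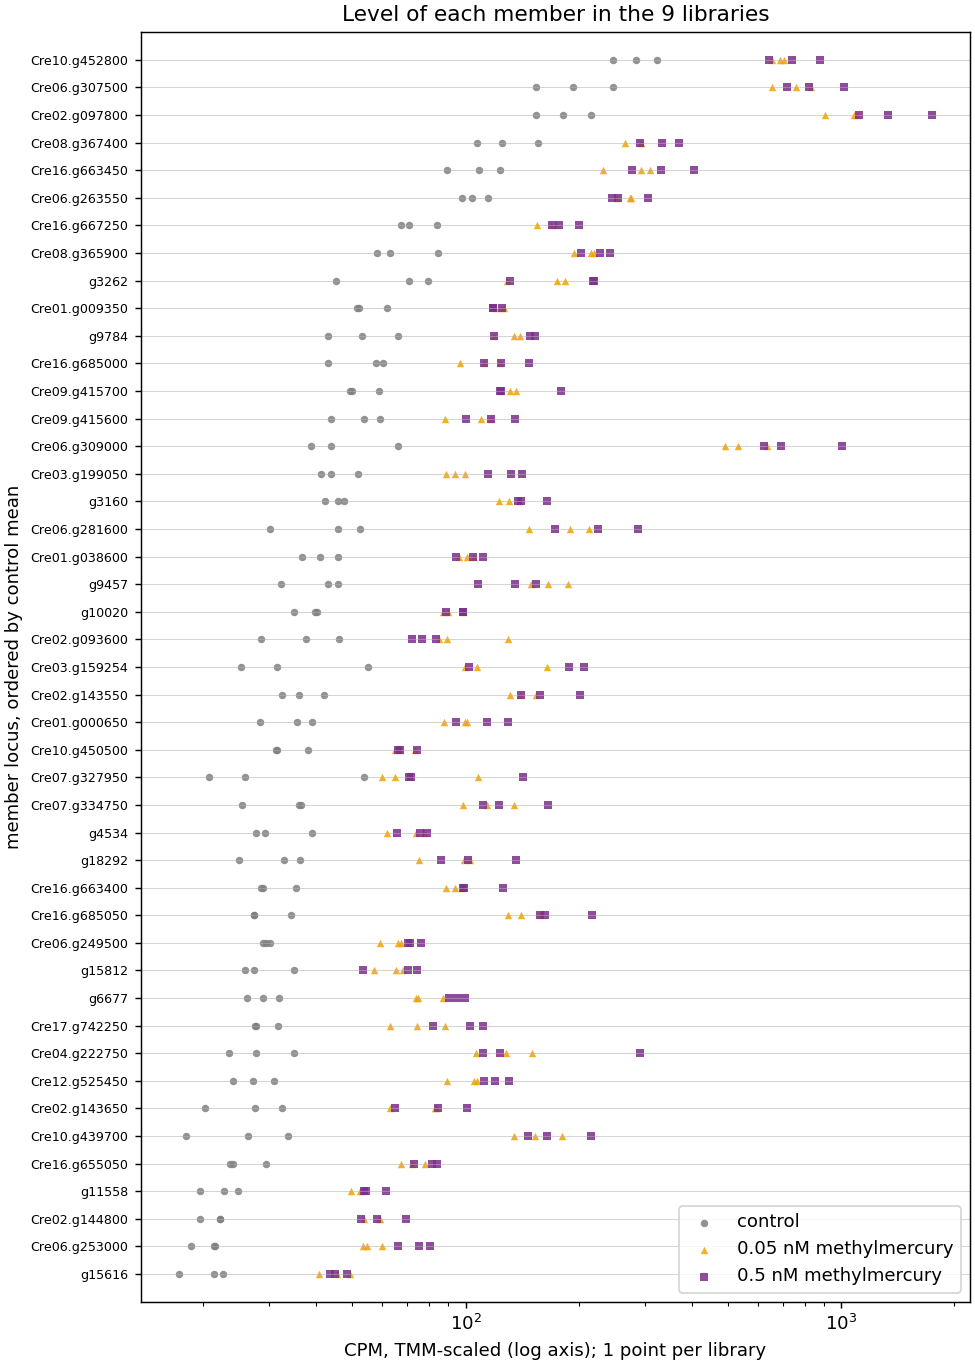
TMM-scaled CPM on a log axis for each of the 45 members (rows, ordered by control mean) in each of the 9 libraries, with grey circles for control, orange triangles for 0.05 nM and purple squares for 0.5 nM. In every row the treated libraries stand to the right of the controls, while for 36 of the 45 rows the libraries of the 2 doses overlap. Among all tested loci the 0.5 nM libraries lay wholly above those at 0.05 nM for 8.37% and wholly below for 12.2%.

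Cre06.g309000 had the largest rise of the 45. It was read at 38.8, 66.1 and 44.0 CPM in control replicates 1 to 3, at 492, 533 and 636 CPM at 0.05 nM and at 622, 690.2 and 1004 CPM at 0.5 nM. Every treated library stood far above every control, and the libraries of the doses overlapped in 1 place, where 0.05 nM replicate 3 stood above 0.5 nM replicate 1. The log2 change was 3.48 ± 0.24 at 0.05 nM and 3.96 ± 0.25 at 0.5 nM (SE).

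Cre02.g097800 contributed the most reads of all members in the treated cultures. Its values were 182, 215 and 154 CPM in the controls, 1102, 908 and 1082 CPM at 0.05 nM and 1331, 1119 and 1745 CPM at 0.5 nM. All libraries at 0.5 nM stood above all at 0.05 nM, with 0.5 nM replicate 3 far above the others. The log2 changes were 2.48 ± 0.19 and 2.93 ± 0.19 (SE).

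Cre10.g452800 took the most reads in the controls, at 284, 323 and 246 CPM. It rose to 705, 656 and 688 CPM at 0.05 nM and 742, 642 and 881 CPM at 0.5 nM, log2 changes of 1.26 ± 0.14 and 1.41 ± 0.14 (SE), and the doses overlapped. Cre06.g307500 came second in the controls, at 154, 247 and 193 CPM, and was read at 657, 759 and 831 CPM at 0.05 nM and 716, 819 and 1019 CPM at 0.5 nM. In each of its 3 groups replicate 1 was the lowest library. The 3 members with the most control reads took 25.4% to 27.8% of all member reads in the control libraries and 30.3% to 33.4% in the treated ones.

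The next members by control reads rose between 2-fold and just over 3-fold at 0.05 nM. Cre08.g367400 had a control mean of 129.5 ± 24.2 CPM, which became 285 ± 15.7 CPM under 0.05 nM and 332 ± 39.2 CPM under 0.5 nM (SD, 3 libraries each). Cre06.g263550 had 106 ± 8.28, 268 ± 13.0 and 269 ± 33.2 CPM in the same order, nearly the same level at both doses. Cre16.g667250 went from 73.9 ± 8.90 to 166 ± 9.68 and 182 ± 15.9 CPM, and Cre08.g365900 from 68.4 ± 14.1 to 210.4 ± 13.4 and 224 ± 20.2 CPM. Of the 45 members, 6 had at least 100 CPM in controls and 31 lay under 50 CPM. Among all 5783 loci above the floor, 1825 had at least 100 CPM.

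Beside Cre06.g309000 and Cre02.g097800, 6 further loci made up the 8 with the largest mean rise, all of them under 50 CPM in controls. Cre10.g439700 was read at 18.0, 33.7 and 26.3 CPM in controls, 135, 153 and 180.2 CPM at 0.05 nM and 147, 165 and 216 CPM at 0.5 nM, log2 changes of 2.58 ± 0.23 and 2.76 ± 0.23 (SE). Cre16.g685050 was read at 27.4, 34.4 and 27.3 CPM, 140.2, 129.6 and 158 CPM and 163, 157 and 217 CPM in the same order, with changes of 2.26 ± 0.15 and 2.59 ± 0.15. In both of these loci 0.5 nM replicate 3 was the highest of the 9 libraries.

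Cre04.g222750 owed much of its level at 0.5 nM to 1 library. Its controls were 23.4, 34.9 and 27.7 CPM, its 0.05 nM libraries 107, 128 and 149.9 CPM and its 0.5 nM libraries 111, 124 and 292 CPM. Replicate 3 at 0.5 nM was more than 2 times either of the other libraries of that dose, which themselves lay among those at 0.05 nM. The log2 changes were 2.16 ± 0.37 and 2.62 ± 0.37 (SE), and without that library the change at 0.5 nM was 2.03. Cre06.g281600 rose by 2.10 ± 0.24 and 2.42 ± 0.24, Cre02.g143550 by 1.94 ± 0.15 and 2.18 ± 0.15, and Cre12.g525450 by 1.87 ± 0.12 and 2.14 ± 0.12 (log2, SE). Of the 45 members 6 rose at least 4-fold at both doses, 14 at least 3-fold at both, and 22 stayed under 3-fold at both.

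At the lower edge, the members nearest above the limit of 2 were Cre09.g415600, at 2.01-fold and 2.25-fold, Cre10.g450500, at 2.04-fold and 2.06-fold, and Cre03.g199050, at 2.06-fold and 2.84-fold for 0.05 nM and 0.5 nM. Nearest below it were Cre13.g582800, at 2.01-fold and 1.99-fold, Cre12.g489450, at 1.99-fold and 2.18-fold, and Cre13.g566850, at 1.96-fold and 2.23-fold. At the floor, g15616, Cre06.g253000 and Cre02.g144800 had control means of 20.4, 20.5 and 21.3 CPM, and the loci just excluded, Cre13.g583100, g4577 and Cre03.g151650, had 19.98, 19.9 and 19.6 CPM. The 3 loci removed for their ratio were Cre05.g248400, with 1.73 times the 0.05 nM level at 0.5 nM, Cre05.g248450 with 1.69 times and Cre17.g708750 with 1.95 times, while the highest ratio among members was 1.39, in Cre06.g309000. The values on either side of the fold limit and of the floor are close, while those on either side of the ratio limit, 1.39 and 1.69, are farther apart. When the lowest treated library had to reach 2 times the highest control library, 24 of the 45 remained. Compared within each replicate number, 33 members were at least doubled in all 6 comparisons of a treated library with the control of that number. The lowest of all these folds was 1.76. Whether equal numbers pair these libraries is not known.

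Cre07.g327950 was the 1 member that did not pass edgeR's threshold at 0.05 nM. It was read at 53.5, 20.8 and 25.8 CPM in controls, 108, 59.8 and 64.9 CPM at 0.05 nM and 142, 70.7 and 71.7 CPM at 0.5 nM. Replicate 1 was about 2 times the other libraries in each group, so the control of replicate 1 came close to the treated libraries of replicates 2 and 3 without reaching them. The log2 changes were 1.20 ± 0.44 and 1.49 ± 0.44 (SE), with the largest standard errors of the 45. Its call at 0.5 nM was lost without control replicate 3 or without 0.5 nM replicate 1, and at 0.05 nM it passed with the replicate number as a block.

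The rule bounded the ratio of the doses but left room on either side of 1. For 42 members the mean was higher at 0.5 nM than at 0.05 nM and for 3, g9457, Cre02.g093600 and Cre01.g009350, it was lower, with ratios from 0.764 to 1.39 and a median of 1.13. The median log2 difference was 0.18, against 0.01 over all tested loci. In edgeR's test between the doses 0 of the 45 passed, where 0.832% of all loci did, and 9 members had an unadjusted p under 0.05, where 13.5% of loci did. That count of 9 fell to 2 without 0.5 nM replicate 3, where 1375 of 14856 loci had such a p. It was 4 without 0.05 nM replicate 1, where 1571 of 14860 loci did, and 5 without 0.05 nM replicate 2, where 1254 of 14876 did. Without 0.5 nM replicate 1 it rose to 11, where 1822 of 14840 did, and it stayed at 9 without any other single library. With the replicate block it was 22, where 3316 of 14778 loci had such a p. DESeq2 called 2 members, Cre03.g199050 and Cre06.g253000, both higher at 0.5 nM, where it called 8.47% of the 7702 loci to which it gave an adjusted p. With the replicate number as a block edgeR called 7 members, 6 higher at 0.5 nM and 1 lower, where 8.99% of all loci were called, 1.94% higher and 7.04% lower. Since the rule itself limited this ratio, these counts too are a description.

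Those 7 members, singled out after their values were seen, showed small steps between the doses. Cre03.g199050 was read at 51.8, 41.2 and 43.9 CPM in controls, 99.4, 88.8 and 93.9 CPM at 0.05 nM and 141, 115 and 132 CPM at 0.5 nM, so that the 3 groups did not overlap. Its log2 difference between the doses was 0.46 ± 0.07 with the block and 0.47 ± 0.11 without it (SE), and without control replicate 1 it passed edgeR's test as well. The others that were higher at 0.5 nM with the block were Cre06.g253000 by 0.40 ± 0.09, Cre17.g742250 by 0.40 ± 0.09, Cre06.g281600 by 0.31 ± 0.09, g6677 by 0.28 ± 0.08 and Cre12.g525450 by 0.27 ± 0.07 (log2, SE).

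The member called lower was g9457. Its values were 45.8, 43.0 and 32.3 CPM in the controls, 188, 149 and 166 CPM at 0.05 nM and 154, 136 and 108 CPM at 0.5 nM. Within each replicate number the 0.5 nM library was the lower of the treated pair, while across numbers the doses overlapped, and the log2 difference with the block was -0.35 ± 0.09 (SE). Cre02.g093600 was the 1 member whose 0.5 nM libraries all lay below its 0.05 nM libraries, at 72.2, 83.4 and 76.7 CPM against 129.9, 89.3 and 84.9 CPM, over controls of 37.6, 45.9 and 28.6 CPM. Its doses differed by -0.39 ± 0.18 (log2, SE), and it was called neither with nor without the block. For 8 members all libraries at 0.5 nM lay above all at 0.05 nM, where 8.37% of tested loci did so, and for this 1 all lay below, where 12.2% did so.

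The spread between replicates was not used by the rule. On log2(CPM + 1), the pooled SD within groups ran from 0.07 in Cre06.g249500 to 0.58 in Cre07.g327950, with a median of 0.20. Over the 5166 loci whose control means lay in the members' range the median was 0.14. Cre06.g249500 was read at 29.4, 28.8 and 30.2 CPM in controls, 65.9, 59.1 and 67.4 CPM at 0.05 nM and 76.2, 70.5 and 71.3 CPM at 0.5 nM, 3 tight groups in rising order. Cre01.g009350 and g10020 came next, with pooled SDs of 0.09 and 0.10.

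The members with the widest spread after Cre07.g327950 were Cre03.g159254, with a pooled SD of 0.51, and Cre04.g222750, with 0.49. Cre03.g159254 was read at 55.1, 31.5 and 25.3 CPM in controls, 165, 99.6 and 107 CPM at 0.05 nM and 207, 102 and 188 CPM at 0.5 nM. As in Cre07.g327950, replicate 1 was the highest library of each of its groups. Its log2 changes were 1.72 ± 0.36 and 2.14 ± 0.36 (SE).

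The deviation of replicate 1 recurred from group to group. For 25 members replicate 1 lay below the mean of replicates 2 and 3 in all 3 groups, 55.6% of the members against 34.0% of the 5166 loci in the same range, and for 9 members it lay above in all 3 groups, 20% against 34.3%. Over all 5783 loci above the floor the share that was lower in all 3 groups was 35.5%. With library totals 18 members were lower and 15 higher in all 3 groups, and the share that was lower was 40% of members against 21.9% of the same 5783 loci. The widest upward deviations were at 1.17, 0.78 and 0.99 in Cre07.g327950 for control, 0.05 nM and 0.5 nM and at 0.94, 0.67 and 0.57 in Cre03.g159254. The widest downward ones were g3262, at -0.72, -0.47 and -0.74, Cre06.g281600, at -0.68, -0.44 and -0.55, and Cre04.g222750, at -0.39, -0.37 and -0.77. These 5, the 2 highest and 3 lowest by the mean over the groups, were picked by their values. In Cre04.g222750 at 0.5 nM, replicates 1 and 2 lay close together, at 111 and 124 CPM, below 292 CPM in replicate 3.

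Across the 45 members, the deviations of replicate 1 from its group mean had a Pearson correlation of 0.89 between control and 0.05 nM, 0.93 between control and 0.5 nM and 0.88 between the doses. Over the 5783 loci above the floor the same correlations were 0.85, 0.83 and 0.80. For replicate 2 they were 0.50 to 0.58 over the members and for replicate 3 they were 0.32 to 0.64. The points of each correlation share their pair of libraries, so these are descriptions over loci with no test. Replicates 2 and 3 deviated together across numbers as well, for example with 0.74 between control replicate 3 and 0.05 nM replicate 2. In these correlations replicate 1 stood against both of the others, in the members as in other loci. Deviations from a group mean cancel out within the group, so part of this contrast is forced. By the differences between the counts of replicate libraries, replicate 1 was the most distant library in control and at 0.05 nM. At 0.5 nM the most distant library was replicate 3. With replicates 2 and 3 alone 46 loci met the rule, 42 of them members, and the members' median log2 changes were 1.41 and 1.63.

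**Figure D3:**
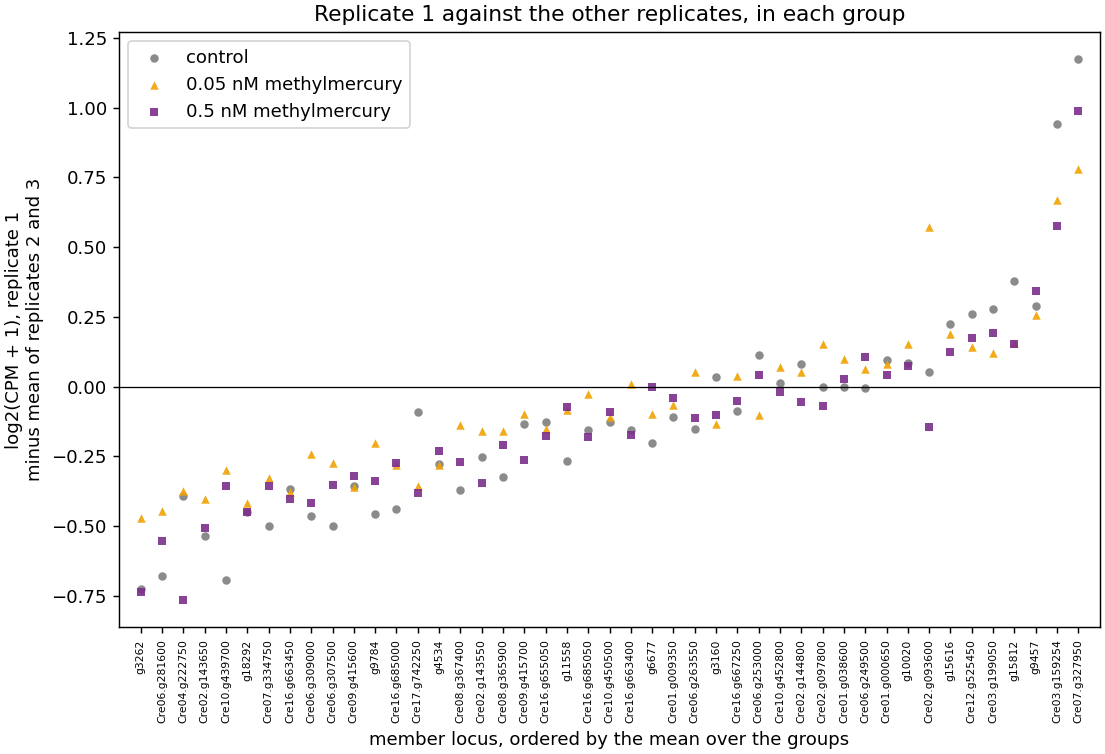
Log2(CPM + 1) of replicate 1 minus the mean of replicates 2 and 3 for each of the 45 members, in each group (grey circles for control, orange triangles for 0.05 nM, purple squares for 0.5 nM), ordered by the mean over the groups. The 3 symbols of a locus mostly lie together, below 0 in all groups for 25 loci and above 0 in all groups for 9.

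Within each group the same replicate was the highest for most members. Control replicate 2 was the highest control for 34 members, 75.6% against 24.2% of the 5166 loci. At 0.05 nM replicate 3 was the highest for 27 members, 60% against 21.1%, and at 0.5 nM replicate 3 was the highest for 35, 77.8% against 25.2%. Alignments at more than one place came to 43.7% of the assigned count in control replicate 3 and to 19% to 27% in the other libraries, and control replicate 3 had the lowest member median of the controls, at 32.9 CPM against 37.6 and 40.3 CPM. Its part in the members' values was not tested.

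The RefSeq table gave a place to 34 members, on 12 chromosomes, with 6 each on chromosomes 6 and 16 and 5 on chromosome 2. The other 11 carry g numbers, for which no place is used here. Of the 10769 tested loci with a place, chromosome 6 held 992, chromosome 16 held 757 and chromosome 2 held 937. Chromosome 12, with 1255 of these loci, held 1 member. Whether the members are spread evenly was not tested. Of the 34, 2 members were direct neighbours, Cre16.g663400 and Cre16.g663450, and 2 more pairs were separated by 1 locus, Cre09.g415600 with Cre09.g415700 and Cre16.g685000 with Cre16.g685050. The labels and headers used here name no genome build for the counts, so no coordinates are stated.

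The neighbours Cre16.g663400 and Cre16.g663450 rose to a similar degree from different levels. Cre16.g663450 was read at 89.4, 123 and 108 CPM in controls, 232, 293 and 310.1 CPM at 0.05 nM and 277, 331 and 407 CPM at 0.5 nM, and Cre16.g663400 at 28.6, 35.4 and 28.9 CPM, 93.8, 88.8 and 98.0 CPM and 98.7, 98.8 and 126 CPM. The log2 changes were 1.37 ± 0.17 and 1.66 ± 0.17 in the first and 1.59 ± 0.13 and 1.797 ± 0.13 in the second (SE). In the pair Cre16.g685000 and Cre16.g685050 the changes were unequal, at 1.04 ± 0.15 and 1.253 ± 0.15 against 2.26 ± 0.15 and 2.59 ± 0.15. For Cre09.g415600 they were 1.004 ± 0.15 and 1.17 ± 0.15, and for Cre09.g415700 1.31 ± 0.15 and 1.44 ± 0.15. They name no strand setting either, so if neighbours overlap their reads may not be separated.

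The loci beside the members were not chosen by the rule. Of 46 tested direct neighbours that are no members, 17 were higher at 0.05 nM, 37.0% against 28.1% of all tested loci with a place, and 16 were higher at 0.5 nM, 34.8% against 32.5%. Lower were 13 at 0.05 nM and 14 at 0.5 nM, 28.3% and 30.4% against 25.6% and 29.4%. At 2 steps 17 of 48 and 16 of 48 were higher, and at 3 steps 13 of 49 and 15 of 49. The median log2 changes of the direct neighbours were 0.19 at both doses, against 0.05 and 0.07 for all loci with a place. With library totals 26 of the 46 were higher at 0.5 nM, where 6707 of all 14778 tested loci were.

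At both doses 5 of the 46 had a fitted change of at least 2-fold, 10.9% against 8.93% of all loci with a place. Of these 5, Cre16.g667200 passed the test at neither dose (edgeR adjusted p of 0.0956 and 0.0683). Cre04.g222800, next to Cre04.g222750, went from a mean of 7.22 CPM in controls to 65.6 CPM at 0.05 nM and 104.4 CPM at 0.5 nM, log2 changes of 3.18 and 3.86, against 2.16 ± 0.37 and 2.62 ± 0.37 (SE) in the member beside it. Cre01.g009400, next to Cre01.g009350, went from 5.59 to 30.3 and 49.6 CPM, changes of 2.42 and 3.14. Both lay below the control floor of the rule and were picked here for their values.

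**Figure D4:**
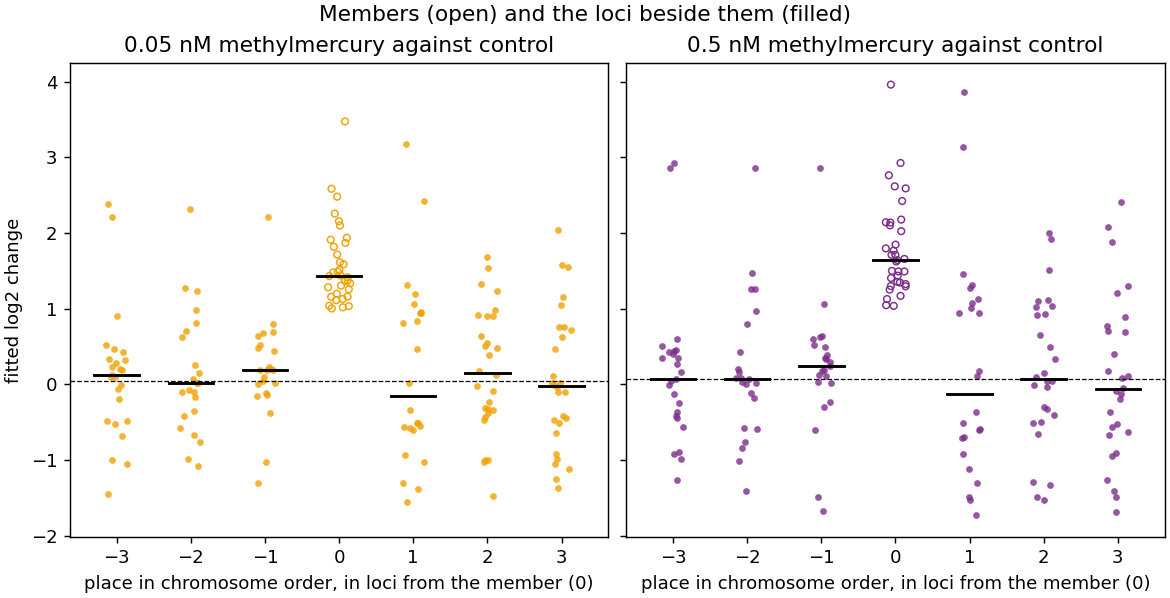
Fitted log2 change against control of the 34 members with a chromosome place (open circles at 0) and of tested loci up to 3 places away that are no members (filled), at 0.05 nM (left) and 0.5 nM (right). Bars are medians and the dashed line is the median of all tested loci with a place, near which the medians of the neighbours lie.

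Some members that no rule of naming picked out were given above for their values or places. The members not named with values so far were the other 11. Cre01.g000650, Cre01.g038600, Cre02.g143650, Cre07.g334750, Cre16.g655050, g3160, g4534, g9784, g11558, g15812 and g18292 had control means between 22.4 and 54.1 CPM. Their log2 changes ran from 1.10 in g15812 to 1.82 in Cre07.g334750 at 0.05 nM, and from 1.16 to 2.03 in these same loci at 0.5 nM. For all 11 the treated libraries stood above the controls, as for every member.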

How the data were processed

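Libraries were made with a stranded mRNA kit, per the labels' protocols. The authors deposited raw read counts per locus for each library. The submitters' processing notes name TopHat2, an aligner, and HTSeq, a read counter. Versions, genome build, annotation and strand setting are not given in the labels or headers used here. HTSeq's summary lines (no feature 1.02% to 1.24%, ambiguous 0.264% to 0.331% of the assigned count) were left out. A table of the whole series, deposited by the authors, holds, per the file headers, signed folds of either dose over control, taken as a score with no unit stated, with p-values before and after FDR correction. Its 18 columns of per-sample values were not used.

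The 9 count files were joined by identifier. CPM were computed with edgeR 4.0.16 (TMM factors over all 17737 loci, R 4.3.3) and are divided by library size but not by length. Tests were edgeR's quasi-likelihood tests (filterByExpr, TMM, robust dispersion, group as the only term, 6 residual degrees of freedom, two-sided) with Benjamini-Hochberg adjustment over the 14778 loci kept and a threshold of 0.05. The labels give 3 replicates of each of 3 conditions and no model. Replicate numbers come from the sample titles. Deviations from the group means correlated over 0.1 for all 9 same-numbered pairs (0.10 to 0.63). Same-numbered pairs of replicates 2 and 3 ran from 0.10 to 0.37, and pairs of these across numbers from 0.02 to 0.37. In these correlations replicate 1 stood apart, and they cannot show whether replicates 2 and 3 pair by number. As the labels name no model, the main fit used group alone, with the number as a block in an alternative. Counts of replicate libraries differed by more than sampling noise, so all 9 libraries were kept apart. The precision of each value is set by 3 libraries per group and, for the scarcest member, by 240 reads in one library.

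Members and lists were chosen with earlier results of these data known. Named loci are the 8 members with the most control reads, the 8 with the largest mean rise, those nearest the limits of the rule, adjacent members, and the 3 with the widest and narrowest spread. Others are named where a count is small, or for values or places that had been seen. Chromosome order came from the RefSeq table. Products, proteins and promoters of the members were not analysed here. Alternatives were other scalings (DESeq2 size factors, library totals), DESeq2 1.42.0, no filter, a replicate block, other limits of the rule, each library left out and, chosen after seeing the data, replicates 2 and 3 alone.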

Additional observations from a re-analysis of the deposited data

How the results depend on the processing

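The members' median log2 changes ranged from 1.355 to 1.480 at 0.05 nM and from 1.495 to 1.731 at 0.5 nM when single libraries were left out, and 44 to 45 members were then called at each dose. With library totals these medians were 1.67 and 1.91, 89 loci met the rule, and 26 neighbours in place of 16 were higher at 0.5 nM. That scaling also moved the split of all loci at 0.05 nM from 4015 higher and 3699 lower to 5905 and 2080, and at 0.5 nM from 4671 and 4234 to 6707 and 2557. The number of loci that met the rule was 107 with a floor of 10 CPM, 14 with a floor of 50 CPM, 24 when the lowest treated library had to reach 2 times the highest control, and 41 to 52 with single libraries left out. Between the doses 123 loci were called, against 1328 with the replicate block, 652 by DESeq2, 0 with library totals and 1 with replicates 2 and 3 alone. Leaving out single libraries gave 0 to 383 (383 without control replicate 1, 200 without 0.5 nM replicate 2, and 0 in each of the other 7 cases). Members called between the doses rose from 0 to 7 with the block, 2 by DESeq2 and 0 to 1 with single libraries left out. The causes were not tested. The block changed 1 other call of a named member, Cre07.g327950 at 0.05 nM, which passed in 6 of 14 alternatives (adjusted p from 1.05e-08 to 0.159). At 0.5 nM its adjusted p was 0.0637 without control replicate 3 and 0.0582 without 0.5 nM replicate 1. Of 756 alternative values of named members' changes, the other 748 kept their direction and side of the threshold, and 0 reversed.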
